A study of Mus musculus with 2 samples.

Results

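Sd4 is one of 13 clusters into which the authors divided the cells of mouse testis by single-cell RNA sequencing, and it is one of the clusters that they named Sd2 to Sd10 and described as haploid spermatids, after a mixed cluster Sd1. Its members are all cells that carry the subtype Sd4 in the deposited cell table. They number 379 of 5170 cells in the WT library (7.33%, exact 95% binomial interval 6.64 to 8.08) and 520 of 7238 cells in the KO library (7.18%, 6.60 to 7.80), which is 899 of 12408 cells in all. The WT library came from normal adult testes of C57BL/6 mice (C57BL/6N in the study's methods), and the KO library from adult mice of the same strain in which CRISPR/Cas9 had removed both exons of Tex13a, an X-linked gene. Whole testes were digested with collagenase I, and no cell sort is described. For each genotype, testes of 3 mice were pooled into 1 library, so no comparison in the data has biological replicates. Values are therefore given side by side with exact 95% Poisson or binomial intervals, which cover counting error only, and no difference between the genotypes was tested. The clusters were made from the same genes that are described here, so differences between Sd4 and its neighbours Sd3 and Sd5 are a description as well.

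Spermatids are the haploid products of meiosis. Round spermatids transcribe actively, build the acrosome and the flagellum, and store many mRNAs for later translation. As they elongate, histones are exchanged for transition proteins and then for protamines, the chromatin condenses and transcription ends. In this series of clusters, protamine mRNA was already higher in Sd4 than in Sd3, and far higher again in Sd5.

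A UMI is a molecular tag that counts 1 captured transcript, and levels (CPM) are the UMIs of a gene per 1000000 UMIs of a cluster and library, with all cells of the cluster summed. In Sd4 4380722 UMIs were counted in WT and 5985127 in KO, with a median of 8976 and 8911 UMIs per cell. No Sd4 barcode was shared between the libraries, and no Sd4 cell fell below 3000 UMIs. Of 25065 gene symbols, 5476 could be placed on exactly 1 row of the matrix of 26758 rows, and these hold 86.9% of all UMIs. Comparisons cover the 4522 of them with at least 100 UMIs over Sd3, Sd4 and Sd5.

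The deletion could be followed only in part. Tex13a had 7 possible rows. One of them held 231 UMIs in Sd4 of WT (52.7 CPM, in 145 cells) and 0 in KO, which allows at most 0.501 CPM and makes WT at least 105-fold higher, with a floor of 3 counts. The other 6 rows showed no such loss. Over all cells the same row held 2295 UMIs in WT and 0 in KO, and among 12664 rows with at least 100 UMIs in WT only 3 had none in KO. The row fits the labels, but its name is not settled.

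The label of the cluster rests on Tex36, a gene named for its expression in testis (chr7:133587024-133602158, minus strand, GRCm38). Tex36 stood at 890 CPM (862 to 918) in Sd4 of WT and at 808 CPM (785 to 831) in Sd4 of KO, the highest level of any cluster in both libraries. In Sd3 it stood at 762 CPM in WT and 720 CPM in KO, and in Sd5 at 33.2 and 39.4 CPM. Tex36 thus separated Sd4 sharply from Sd5, by 26.7-fold in WT and 20.5-fold in KO, and hardly from Sd3, by 1.17-fold and 1.12-fold. Among single cells thinned to 3000 UMIs, 90.0% of WT and 86.0% of KO Sd4 cells held a Tex36 UMI, against 88.1% and 87.6% in Sd3 and 7.27% and 9.61% in Sd5. Without thinning, the shares in Sd4 were 98.4% and 96.9%. Spermatogonia (cluster Sg), which should lack the gene, gave 6.39% and 3.96% after thinning at a median depth of 6133 and 5859 UMIs before it. In WT the exact interval began at 3.54 in Sg and at 4.55 in Sd5, below the Sg share of 6.39%. The WT intervals thus overlapped widely, and Sd5 was not separated from Sg in that library. In KO the exact interval was 1.73 to 7.65 in Sg and 6.74 to 13.2 in Sd5, so the intervals overlapped narrowly there.

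Genes higher in Sd4 than in both neighbours set it apart more clearly than Tex36. Of 4522 genes, 140 (3.1%) were at least 1.5-fold above Sd3 and above Sd5 in both libraries, and 15 (0.332%) were as far below both. Tbc1d23, a protein of the TBC family that works in vesicle capture at the Golgi (chr16:57168862-57231504, minus strand), stood at 102 CPM in Sd3, 459 CPM (439 to 480) in Sd4 and 31.4 CPM in Sd5 of WT. The KO library gave 103, 498 (480 to 516) and 40.0 CPM. Tex29, named like Tex36 for its expression in testis (chr8:11840474-11855761, plus strand) and singled out after its values were seen, stood at 153, 896 and 351 CPM in WT and at 133, 903 and 329 CPM in KO. In thinned cells, 72.8% of WT and 75.8% of KO Sd4 cells held a Tbc1d23 UMI, against 27.6% and 22.1% of Sd3 cells and 6.57% and 8.19% of Sd5 cells. A lncRNA annotated on the other strand, Gm16892, overlaps Tbc1d23, and the strand setting of the counting is not given in the sources used here.

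**Figure D1:**
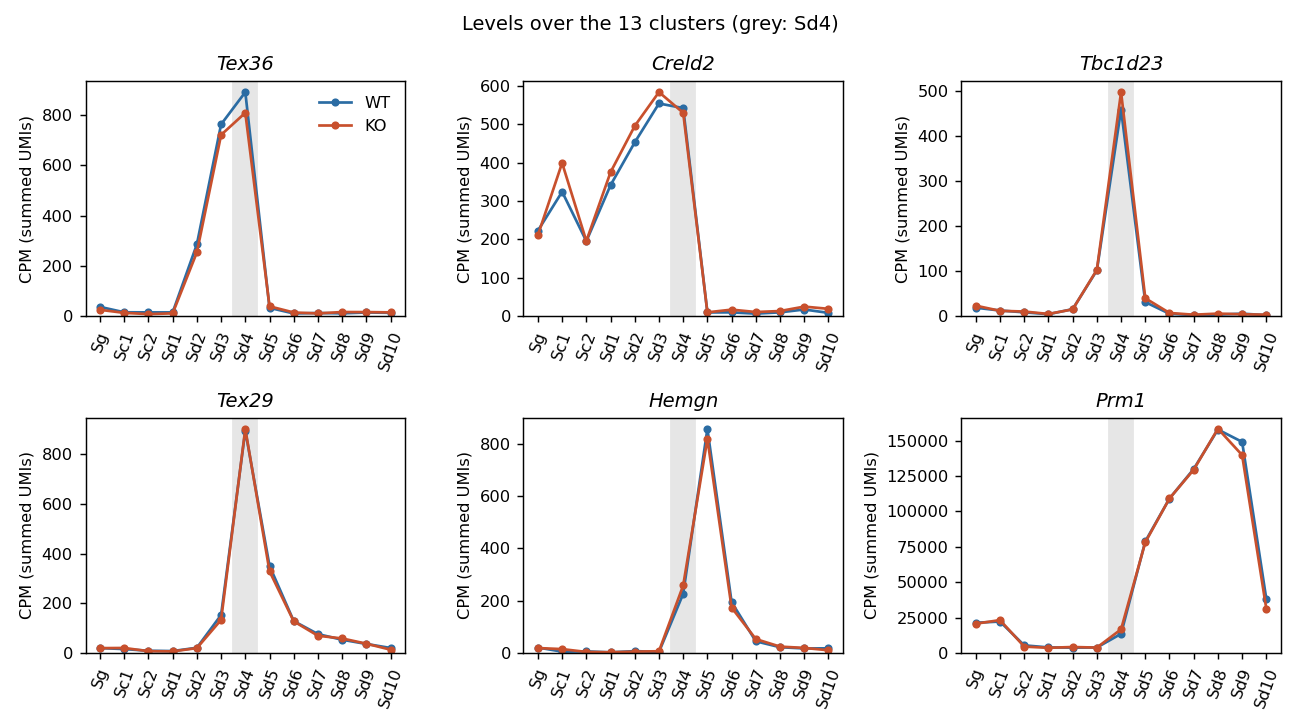
Level in CPM of summed UMIs (linear vertical axes from 0) of 6 genes over the 13 clusters in the order of the study, with Sd4 shaded grey; points are the WT (blue) and KO (red) libraries and lines only join them. Tex36, Tbc1d23 and Tex29 reach their highest value in Sd4, Creld2 stands at 542 CPM in Sd4 and 9.86 CPM in Sd5 of WT, and Hemgn and Prm1 are higher in Sd5.

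Short promoter windows are printed here for the marker Tex36, for Tbc1d23 and 4933436I01Rik, which were above both neighbours, and for Hemgn, which was higher still in Sd5. Windows were cut only around a match to a searched motif, so every gene shown holds one. They come from RefSeq promoter sequences of GRCm38.p6 (250 bases before to 50 bases after each start), read 5′ to 3′ along the gene's strand. Capitals mark the motif that was searched on both strands: TGACGT, the opening letters of the CRE motif TGACGTCA that is bound by CREM, a main activator of spermatid transcription; GTTGCC, the core of the X-box bound by RFX factors; or TATAAA.
Tex36: cctctctgcccaGGCAACagctgagaagat
Tbc1d23: ctagagacgtggTGACGTtgcatccttcca
4933436I01Rik: tcagagcctaagGTTGCCatgattggctat
Hemgn: gggggttccctgTATAAAcagtgagctcga
The Tex36 window is chr7:133602117-133602146 (minus strand), with GTTGCC on the opposite strand 19 bases before the start. Tex36 also holds TGACGT on the opposite strand, 29 bases after the start, and a further promoter listed for Tbc1d23 holds TATAAA, 197 and 151 bases before its start. The Tbc1d23 window is chr16:57231504-57231533 (minus strand), 55 bases before the start, and that of the X-linked 4933436I01Rik is chrX:67921518-67921547 (minus strand), 85 bases before it. The Hemgn window is chr4:46404246-46404275 (minus strand), 80 bases before the start. Over all 27025 genes with a promoter, 2.03% hold TGACGTCA, 8.37% TGACGT, which every TGACGTCA contains, 14.1% GTTGCC and 15.7% TATAAA. Among the 3405 of 4522 compared genes that matched, the shares were 3.94%, 13.8%, 17.9% and 9.72%. The 95 matched genes among the 140 above both neighbours gave 3.16%, 11.6%, 14.7% and 11.6%. A match describes letters in a window and says nothing of binding.

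Of the 20 genes ranked highest above both neighbours, 14 also had their highest level of all 13 clusters in Sd4 in both libraries. Of all 5020 genes with at least 100 UMIs over the clusters, 409 (8.15%) did so. The ranking used the same Sd4 levels, so a peak in Sd4 was largely built in and is no separate support. Etnk1, a kinase at the entry to phosphatidylethanolamine synthesis, stood at 42.3, 242 and 48.9 CPM in Sd3, Sd4 and Sd5 of WT and at 38.9, 263 and 63.4 CPM in KO. Atp6v1h, a subunit of the proton pump that acidifies vesicles, stood at 6.30, 41.3 and 8.03 CPM in WT and at 4.17, 36.3 and 8.93 CPM in KO. Os9, a lectin of endoplasmic reticulum quality control, stood at 6.30, 20.8 and 4.02 CPM in WT and at 5.61, 24.2 and 3.08 CPM in KO. Both were at low levels, and Atp6v1h and Os9 were higher still in earlier clusters, in Sc1 and in Sd1. Kif20b, a kinesin of cell division, stood at 98.8 CPM in Sd4 of WT and 117 CPM in KO, with log2 ratios of 2.92 and 2.32 to Sd3 and of 2.71 and 2.12 to Sd5, but its highest level was in Sg.

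Several of the strongest Sd4 transcripts have symbols taken from clone names, and their function is not described here. 4930527J03Rik stood at 144, 564 and 79.9 CPM in Sd3, Sd4 and Sd5 of WT and at 133, 599 and 85.9 CPM in KO. 4933436I01Rik stood at 153, 563 and 123 CPM in WT and at 168, 561 and 109 CPM in KO. 1700001P01Rik, named here after its values were seen, stood at 468, 1173 and 22.6 CPM in WT and at 445, 1184 and 18.5 CPM in KO. All 3 were thus higher in Sd4 than in either neighbour in both libraries. Bcl2a1a, an antiapoptotic gene of the Bcl2 family, went from 0.813 to 21.5 and 2.56 CPM in WT and from 0.391 to 20.4 and 4.31 CPM in KO, but it has near-identical copies between which reads may have been split.

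The genes below both neighbours were few and low. Mien1 stood at 55.9, 17.4 and 31.8 CPM in Sd3, Sd4 and Sd5 of WT and at 61.3, 14.7 and 28.3 CPM in KO. Prc1, a protein that bundles microtubules of the division spindle, stood at 41.5, 11.9 and 20.4 CPM in WT and at 49.4, 15.9 and 26.2 CPM in KO. Akt1s1, an inhibitory subunit of the mTORC1 kinase, stood at 10.8, 3.65 and 19.4 CPM in WT and at 8.74, 3.01 and 16.9 CPM in KO.

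**Figure D2:**
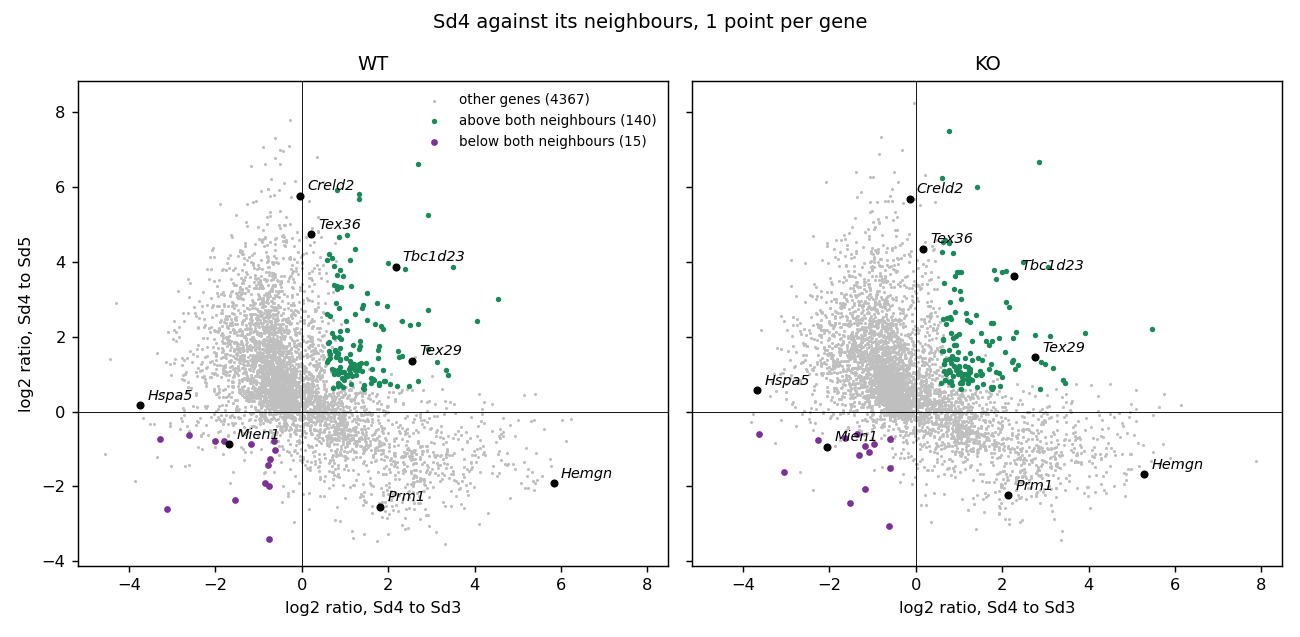
Each point is 1 of 4522 genes in WT (left) or KO (right), with the log2 ratio of Sd4 to Sd3 on the horizontal axis and of Sd4 to Sd5 on the vertical axis; green marks the 140 genes at least 1.5-fold above both neighbours in both libraries and purple the 15 as far below both. Most points lie left of 0 and above 0, with medians of -0.38 and 0.59 in WT, and Tex36 lies near 0 on the horizontal axis.

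Against Sd3, 1074 genes (23.8%) were at least 1.5-fold higher in Sd4 in both libraries and 1517 (33.5%) were lower. Against Sd5, 2050 (45.3%) were higher and 583 (12.9%) lower. The median log2 ratio over all compared genes was -0.38 in WT and -0.41 in KO against Sd3, and 0.59 and 0.58 against Sd5. With ratios centred on these medians the split became 1373 higher and 782 lower against Sd3, and 1311 higher and 1039 lower against Sd5. Read along the 3 clusters, with each call required in both libraries, 1114 genes were below Sd3 and above Sd5, 488 were above Sd3 and below Sd5, 796 were above Sd5 and not past 1.5-fold in both libraries against Sd3, and 446 were above Sd3 and not past 1.5-fold in both libraries against Sd5. After thinning each cluster to the same number of UMIs, Sd4 differed by over 1.5-fold from Sd3 in 61.4% of 4580 genes in WT and 64.5% in KO, and from Sd5 in 66.3% and 64.0%. Every other cluster differed in at least 70.3%, so Sd3 and Sd5 were its nearest neighbours. By this share Sd3 was nearer in WT, while in KO Sd5 was nearer by a small margin. By the median absolute log2 ratio Sd3 was nearer in both libraries, with 0.77 against 0.97 in WT and 0.84 against 0.89 in KO. Counting error adds to the shares at this depth, which was 749010 UMIs per cluster and library.

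Among the genes that were far higher in Sd4 than in Sd3 was Hemgn, a nuclear protein first known from blood-forming cells (chr4:46393989-46413506, minus strand), which also marks Sd5. It stood at 3.86 CPM in Sd3, 226 CPM (212 to 241) in Sd4 and 856 CPM in Sd5 of WT, and at 6.52, 258 (245 to 271) and 819 CPM in KO. Fam71a stood at 4.68, 199 and 851 CPM in WT and at 6.91, 268 and 861 CPM in KO. Tmco5b differed from both in that it was already level with Sd5. It stood at 1.83, 147 and 167 CPM in WT and at 3.78, 191 and 176 CPM in KO.

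Among the genes far below Sd3 was Hspa5, the chief chaperone of the endoplasmic reticulum, known as BiP. It stood at 353 CPM in Sd3, 26.3 CPM (21.7 to 31.5) in Sd4 and 23.4 CPM in Sd5 of WT, and at 425, 33.3 (28.8 to 38.2) and 22.5 CPM in KO, so that Sd4 was 13.4-fold and 12.8-fold below Sd3. Wdr66, a component of the axoneme, stood at 294, 37.4 and 6.94 CPM in WT and at 326, 34.9 and 10.8 CPM in KO. Spag1, which helps assemble dynein arms, stood at 132, 14.8 and 5.84 CPM in WT and at 153, 15.5 and 7.70 CPM in KO. Stmn1, which destabilises microtubules, stood at 86.4, 10.3 and 12.8 CPM in WT and at 80.1, 9.86 and 6.77 CPM in KO.

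Another set was present in Sd3 and Sd4 and low in Sd5. Creld2, a protein of the endoplasmic reticulum known to respond to stress there (chr15:88819646-88826683, plus strand) and singled out after its values were seen, stood at 554, 542 and 9.86 CPM in Sd3, Sd4 and Sd5 of WT and at 584, 530 and 10.2 CPM in KO. Prr27 stood at 331, 423 and 3.65 CPM in WT and at 327, 377 and 4.62 CPM in KO. Dscc1, a factor of sister chromatid cohesion, stood at 118, 205 and 3.29 CPM in WT and at 112, 170 and 2.16 CPM in KO. Their log2 ratios of Sd4 to Sd5 ranged from 5.69, that of Creld2 in KO, to 6.80, that of Prr27 in WT. In the opposite direction, Prss51, a serine protease, stood at 5.90, 52.1 and 484 CPM in WT and at 6.91, 63.7 and 465 CPM in KO.

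Gene lists by function are described next. They were compiled from general knowledge with earlier results of these data known, and their counts stand beside the shares of all compared genes given above.

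The genes of chromatin compaction were higher in Sd4 than in Sd3 and still far below Sd5. All 7 compared members of the list of protamines, transition proteins and testis linker histones, of 8 listed, were higher than in Sd3 and 6 were lower than in Sd5, with median log2 ratios of 1.89 in WT and 2.15 in KO against Sd3, and of -2.24 and -1.97 against Sd5. Prm1, the first protamine and the most abundant transcript of Sd4, stood at 3828, 13515 and 78806 CPM in Sd3, Sd4 and Sd5 of WT and at 3773, 16694 and 78174 CPM in KO. Tnp1, the first transition protein, stood at 1227, 6206 and 30923 CPM in WT and at 1163, 7052 and 29234 CPM in KO. Protamine transcripts were also counted in Sg, where Prm1 reached 21336 CPM in WT and 20665 CPM in KO and the share of protamine and transition protein UMIs per cell had a median of 0.790% and 0.647% and a 95th percentile of 16.7% and 17.1%. In Sd4 Tnp1 had 45.9 and 42.2 UMIs per 100 of Prm1, and in Sg 26.3 and 27.0. Prm2 was closer in the 2 clusters, with 42.5 and 41.1 in Sd4 and 36.5 and 40.25 in Sg. Tnp2 had 19.9 and 19.7 in Sd4 and 14.2 and 14.6 in Sg. Hmgb4 had 23.1 and 22.6 in Sd4 and 4.755 and 5.63 in Sg, and Oaz3 23.2 and 19.8 in Sd4 and 10.8 and 10.3 in Sg. Cypt4, a cysteine-rich protein of the perinuclear theca, had 52.4 and 44.4 per 100 of Prm1 in Sd4 and 1.99 and 1.76 in Sg. The part of free RNA or doublets in the Prm1 of Sg and Sd4 was not tested.

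Genes of meiotic division were at lower levels than in Sd3. Of 23 compared genes of meiotic division, of 50 listed, 22 were lower in Sd4 than in Sd3 and 17 were still higher than in Sd5, with medians of -1.66 and -1.82 against Sd3. Ccnb2, a B-type cyclin, stood at 372, 185 and 16.8 CPM in Sd3, Sd4 and Sd5 of WT and at 340, 169 and 13.6 CPM in KO. Cenpe, the kinetochore kinesin, stood at 209, 53.6 and 5.11 CPM in WT and at 222, 59.8 and 7.39 CPM in KO. The exception was Kif2c, a kinesin that depolymerises microtubules, which stood at 27.6, 121 and 306 CPM in WT and at 26.7, 132 and 339 CPM in KO.

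Most compared acrosome genes were above Sd5. Of 43 compared acrosome genes, of 56 listed, 11 were higher and 7 lower in Sd4 than in Sd3, while 29 were higher and 4 lower than in Sd5, and 3 were above both. Spaca1, an acrosomal membrane protein, stood at 553, 759 and 29.9 CPM in WT and at 554, 730 and 36.6 CPM in KO. Acrv1, a protein of the acrosomal matrix, stood at 679, 886 and 230 CPM in WT and at 706, 866 and 255 CPM in KO. Prss37, a protein needed for sperm migration to the oviduct, had the opposite order, with 5.29, 202 and 829 CPM in WT and 11.4, 232 and 762 CPM in KO.

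The lists of flagellum genes were not alike. Of 71 compared axoneme genes, of 106 listed, 36 were lower in Sd4 than in Sd3 and 3 higher, and 51 were higher than in Sd5 and 1 lower. Of 32 compared genes of the outer dense fibres and fibrous sheath, of 35 listed, 15 were higher and 5 lower than in Sd3, and 10 were higher and 7 lower than in Sd5. The median log2 ratios against Sd3 were -0.62 in WT and -0.70 in KO for the axoneme, and 0.31 and 0.42 for the outer dense fibres and sheath, on either side of the median of all genes. The list of outer dense fibres and sheath also holds genes of other sperm parts, so its counts are not those of these structures alone. Among its members Smcp, a cysteine-rich protein of the mitochondrial sheath, stood at 3076, 5621 and 8981 CPM in Sd3, Sd4 and Sd5 of WT. In KO it stood at 2973, 6002 and 8862 CPM.

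Chaperones were more often lower than higher against Sd3, with exceptions. Of 36 compared members, of 41 listed, 19 were lower than in Sd3 and 7 higher. Clgn, a membrane chaperone of the endoplasmic reticulum in spermatids, stood at 1631, 931 and 284 CPM in WT and at 1852, 1020 and 309 CPM in KO. Calr3, a testis form of calreticulin in the same compartment, had the opposite order, with 19.3, 318 and 817 CPM in WT and 16.8, 328 and 773 CPM in KO. In this compartment Hspa5 and Clgn were thus lower than in Sd3 where Calr3 was higher.

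Of 23 compared genes of spermatid transcription and chromatin, of 54 listed, 8 were higher and 5 lower than in Sd3, and 10 were higher and 5 lower than in Sd5. H3f3b, which encodes the replacement histone H3.3, stood at 1405, 2158 and 116 CPM in WT and at 1332, 2120 and 88.4 CPM in KO. Tbpl1, a relative of the TATA-binding protein needed in spermatids, stood at 645, 232 and 18.3 CPM in WT and at 634, 199 and 17.9 CPM in KO. Hmgb4, an HMG-box protein of spermatids, stood at 847, 3121 and 6346 CPM in WT and at 922, 3773 and 7161 CPM in KO. Of 28 compared genes of mRNA storage and translation control, of 55 listed, 4 were higher and 8 lower than in Sd3. Pabpc1, which binds poly(A) tails, stood at 7177, 5067 and 1900 CPM in WT and at 7067, 4894 and 1793 CPM in KO.

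X-linked genes were more often higher than lower when Sd4 was set beside Sd3. Of 104 compared X-linked genes, 62 were higher in Sd4 than in Sd3 and 6 lower, with medians of 0.95 in WT and 1.01 in KO, where autosomal genes had -0.39 and -0.43. Of the 104, 37 (35.6%) were above Sd3 and below Sd5, a path followed by 10.8% of all compared genes, and 8 were above both neighbours. Sex chromosomes are silenced in meiosis, and part of their genes is transcribed again in spermatids. The 7 compared Y-linked genes were all higher in Sd4 than in Sd5, where few of their UMIs were counted. Summed over the 9 Y-linked genes with 1 possible row, Sd4 held 297 UMIs and Sd5 22 in WT. In KO the sums were 339 and 10. Genes were kept for comparison by their UMIs over Sd3, Sd4 and Sd5 together, so the ratio of a single Y-linked gene to Sd5 is uncertain in size. Of 514 compared long non-coding RNA genes, 206 were higher and 89 lower than in Sd3.

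Mitochondrially encoded mRNA was lower in Sd4 than in Sd3. The median share of all mitochondrial UMIs per cell, most of them from the ribosomal RNA mt-Rnr2, was 0.140% in WT and 0.191% in KO, below the medians of the other 12 clusters in each library, with 0.256% and 0.351% in Sd3 and 0.154% and 0.213% in Sd5. All 6 compared mitochondrial protein-coding genes, of 13 listed, were lower than in Sd3. Summed over the 13, they came to 922, 172 and 235 CPM in Sd3, Sd4 and Sd5 of WT and to 1022.5, 154 and 146 CPM in KO, so Sd4 lay below Sd5 in WT and slightly above it in KO. Against Sd5, 1 of the 6 was past 1.5-fold in both libraries, which was mt-Nd4. This subunit of respiratory complex I stood at 220, 22.4 and 37.6 CPM in Sd3, Sd4 and Sd5 of WT and at 217, 17.5 and 26.8 CPM in KO. In contrast mt-Rnr2 stood at 1591, 1217 and 1329 CPM in WT and at 2166, 1722 and 1790 CPM in KO, log2 ratios of -0.39 and -0.33 against Sd3. Mitochondrial genes have near-identical copies in the nuclear genome, and how the counting assigned such reads is not given in the sources used here.

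**Figure D3:**
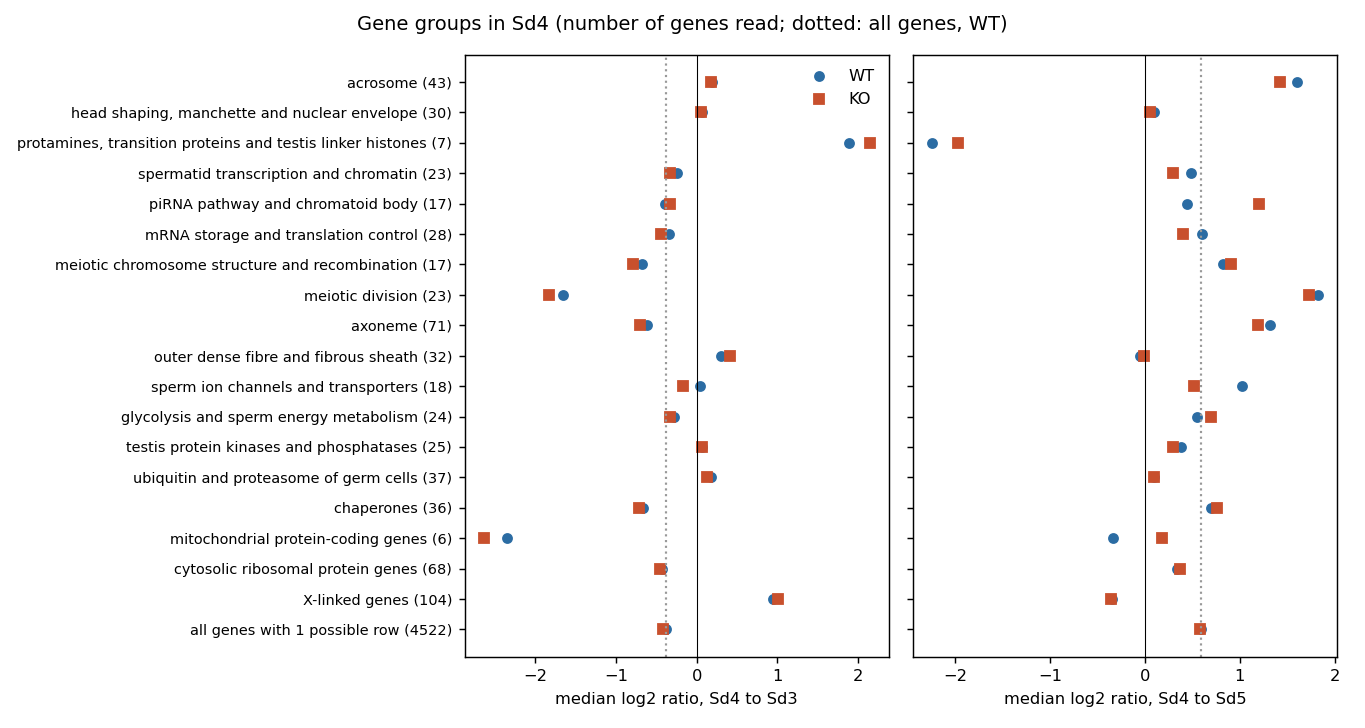
Median log2 ratio of Sd4 to Sd3 (left) and of Sd4 to Sd5 (right) for 18 gene groups and for all compared genes, with the number of genes compared in brackets; circles are WT, squares KO, and the dotted line is the median of all genes in WT. Protamines and transition proteins lie at 1.89 and -2.24 in WT, meiotic division at -1.66 and 1.82, and X-linked genes at 0.95 and -0.35.

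The other lists gave mixed counts. Of 37 compared ubiquitin and proteasome genes, of 52 listed, 13 were higher and 6 lower than in Sd3. Of 30 compared genes of head shaping and the manchette, of 47 listed, 11 were higher and 10 lower, and the 24 of glycolysis and energy metabolism, of 43 listed, gave 3 and 9. Kinases and phosphatases gave 8 higher and 4 lower of 25 compared, of 46 listed, ion channels and transporters 5 and 5 of 18, of 39 listed, and the piRNA pathway 2 and 5 of 17, of 33 listed. Meiotic chromosome structure gave 2 higher and 9 lower of 17, of 39 listed, and cytosolic ribosomal proteins 0 and 13 of 68, of 72 listed.

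Markers of other cell types were at low levels in Sd4. Summed over the list, Sertoli cell genes came to 28.3 CPM in WT and 9.02 CPM in KO, Leydig cell genes to 7.31 and 6.68 CPM, immune cell genes to 6.16 and 6.35 CPM, and peritubular and endothelial genes to 0 and 0.501 CPM. The Sertoli list gene with most UMIs in Sd4 was the cystatin Cst9, with 44 UMIs in WT and 25 in KO. Spermatogonial genes summed to 33.6 and 34.1 CPM. These sums cover the genes with 1 possible row, which were 4 of 15 Sertoli, 4 of 9 Leydig, 3 of 11 immune, 1 of 12 peritubular and endothelial and 6 of 17 spermatogonial genes listed. Among them Hsd17b3, an enzyme of testosterone synthesis in Leydig cells, had 0 UMIs in Sd4 of both libraries, and Myh11, the myosin of smooth muscle, had 0 in WT and 3 in KO. The part of other cell types in the differences between the libraries was not tested.

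The cells of Sd4 were not uniform. The share of a cell's UMIs from 5 protamine and transition protein genes had a median of 1.59% in WT and 2.72% in KO, with quartiles of 0.718% and 5.20% in WT and of 0.841% and 6.71% in KO. In Sd3 the medians were 0.482% and 0.461%, and in Sd5 16.6% and 16.5%. The range within Sd4 thus began at the level of Sd3, with a 5th percentile of 0.392% in WT, and its 95th percentile of 9.77% stayed below the 5th percentile of 11.2% in Sd5. Tex36 and Hemgn, the markers of Sd4 and Sd5, were both found in 31.1% of thinned Sd4 cells of WT and 36.7% of KO. In Sd3 the share with both was 0.397% and 1.28%, and in Sd5 6.57% and 7.35%. Tex36 alone was found in 58.8% and 49.2% of Sd4 cells and Hemgn alone in 5.81% and 10.4%.

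When the Sd4 cells of both libraries were ordered by this share and divided into 4 bins at 0.784%, 2.23% and 6.06%, the named genes had different courses. Tex36 stood at 1128, 1062, 740 and 460 CPM from the lowest to the highest bin of WT and at 1085, 999, 736 and 426 CPM in KO. 1700001P01Rik kept its level for longer, with 1232, 1450, 1354 and 530 CPM in WT and 1278, 1490, 1412 and 602 CPM in KO. Tbc1d23 was highest in the middle, with 384, 515, 532 and 438 CPM in WT and 406, 539, 592 and 465 CPM in KO. Hemgn was higher in each bin than in the one before, with 31.7, 112, 325 and 579 CPM in WT and 26.2, 154, 357 and 492 CPM in KO. The share that sets the order is itself a measurement of these cells, so these levels are a description of the order and carry no test.

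**Figure D4:**
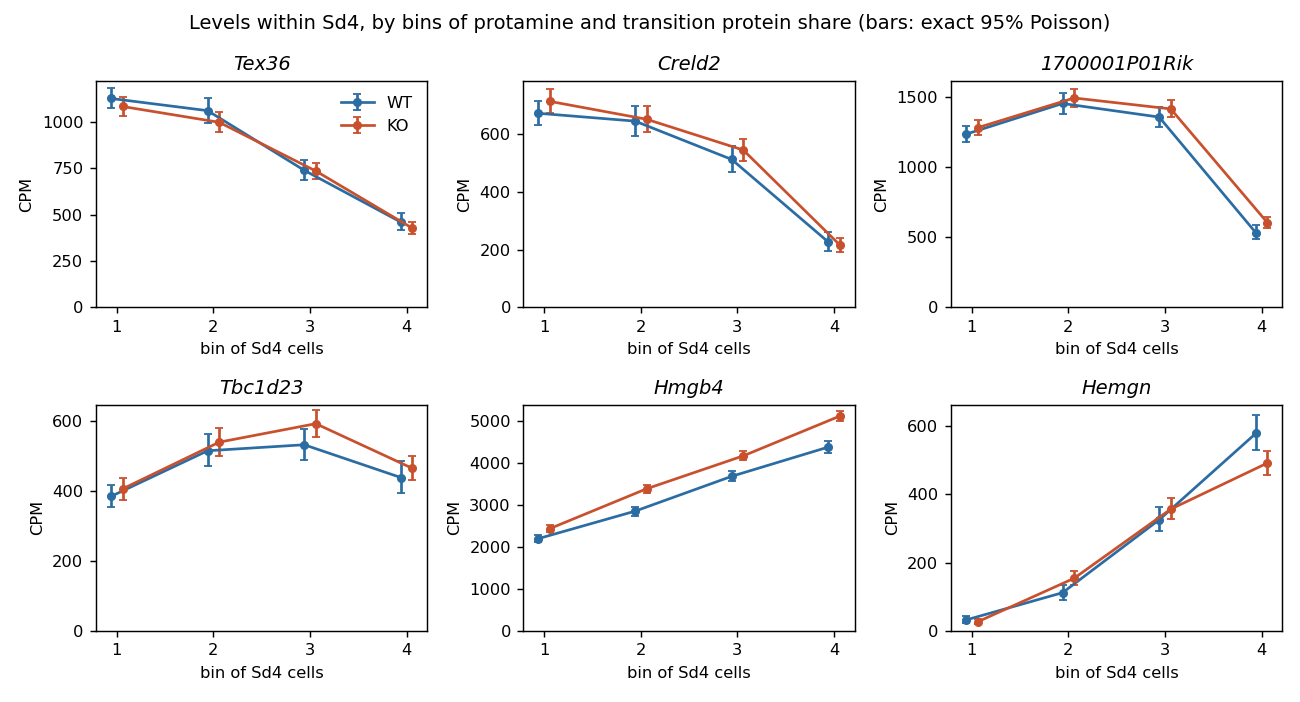
Level in CPM (linear axes from 0, points with exact 95% Poisson intervals) of 6 genes in the 4 bins of Sd4 cells ordered by their share of protamine and transition protein UMIs, in WT (blue) and KO (red). Tex36 goes from 1128 to 460 CPM in WT and Hemgn from 31.7 to 579 CPM, while Tbc1d23 is highest in the third bin.

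Sd4 of WT and KO differed little beside the differences between clusters. With both thinned to 749010 UMIs, 17.8% of 4580 genes differed by over 1.5-fold, against 61.4% to 66.3% between Sd4 and its neighbours. All these shares include counting error at this depth, and its part was not tested, so 17.8% is not the size of a genotype difference. The calls against the neighbours were largely shared, and 1074 genes were higher than Sd3 in both libraries, which is 96.4% of those in WT and 94.9% of those in KO. Among 3917 genes with at least 100 UMIs in Sd4, 33 (0.842%) were at least 1.5-fold higher in KO and 24 (0.613%) were lower. These counts moved widely with the processing, to 152 and 145 with cells thinned to 3000 UMIs, to 113 and 120 with a minimum of 20 UMIs and to 1 and 1 with a 2-fold limit. The genotype cannot be told apart from the library, from the pool of 3 mice or from the run.

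The cells of KO stood further along the protamine order. The highest bin held 27.9% of KO cells and 21.1% of WT cells, and the lowest 21.9% and 29.3%. The 794 genes at least 2-fold higher in Sd5 than in Sd3 had a median log2 ratio of KO to WT of 0.11, with 74.7% of them above 0, and the 1807 genes lower in Sd5 had -0.07, with 34.5% above 0. Within the bins these medians lay between -0.01 and 0.04 and between -0.02 and 0.04. The bins follow a share that itself increases from Sd3 to Sd5, the change by which both groups of genes were chosen. Smaller medians within bins were therefore built in to a degree and carry no test. Prm1 had a log2 ratio of KO to WT of 0.30 (0.29 to 0.32) over all cells and of 0.09 as the mean over bins. Fam71a had 0.43 (0.31 to 0.55) and 0.12, and Hemgn 0.19 (0.07 to 0.31) and 0.02. Prm1 is among the genes whose share sets the bins, so its smaller ratio within bins is built in.

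**Figure D5:**
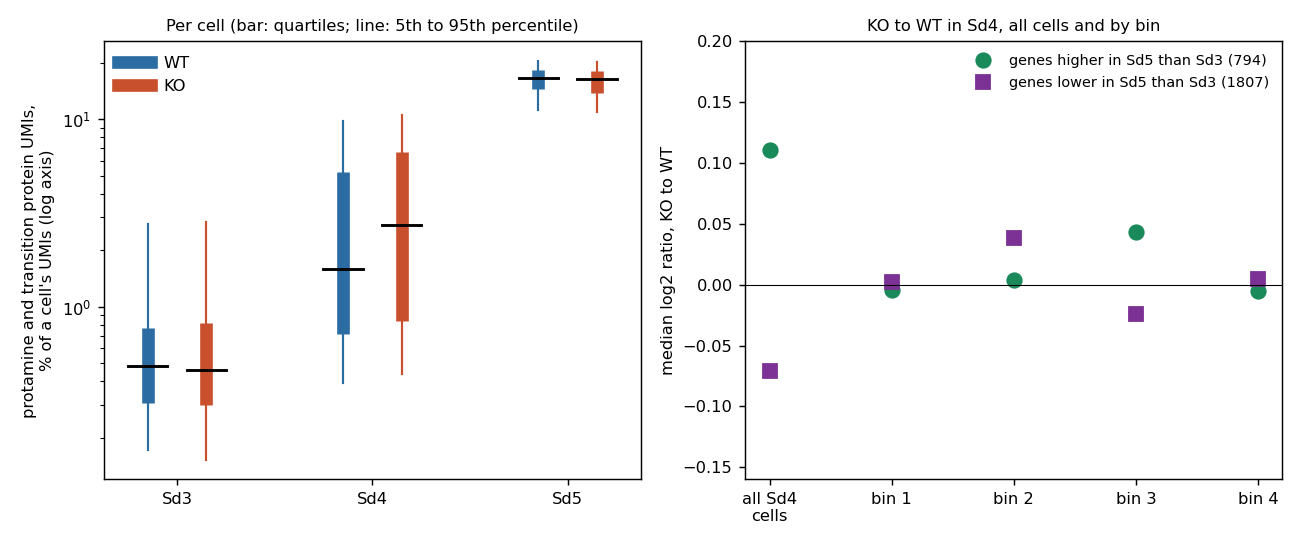
Left, share of each cell's UMIs from 5 protamine and transition protein genes in Sd3, Sd4 and Sd5 (percent, log axis; black line median, bar quartiles, thin line 5th to 95th percentile of cells); right, median log2 ratio of KO to WT in Sd4 for 794 genes at least 2-fold higher (green circles) and 1807 at least 2-fold lower (purple squares) in Sd5 than in Sd3. The medians of 0.11 and -0.07 over all Sd4 cells lie between -0.02 and 0.04 within bins.

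Some genes kept a difference within the bins. 1700030C10Rik had the highest ratio, with 20 UMIs (4.57 CPM, 2.79 to 7.05) in Sd4 of WT and 151 UMIs (25.2 CPM, 21.4 to 29.6) in KO, a log2 ratio of 2.44 (1.79 to 3.22) and of 2.96 as the mean over bins. It was also higher in KO in Sd3, with 0.203 and 16.6 CPM, and in Sd5, with 5.11 and 67.4 CPM. The size of its mean over bins is uncertain. In the lowest and second bins WT held 0 and 2 UMIs of this gene, and KO held 21 and 19. Phf7, which encodes a histone ubiquitin ligase of spermatids, stood at 1274 CPM (1241 to 1308) in Sd4 of WT and at 1729 CPM (1696 to 1763) in KO, a log2 ratio of 0.44 and of 0.46 over bins, and its ratio was 0.44 in Sd3 and 0.39 in Sd5. The differences of both genes were therefore not particular to Sd4. Hmgb4 was higher in KO in each bin, from 2196 CPM in WT and 2436 CPM in KO in the lowest to 4376 and 5115 CPM in the highest. It was also higher in KO in Sd3, with 847 and 922 CPM, and in Sd5, with 6346 and 7161 CPM.

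Foxj1, the master transcription factor of motile cilia, was lower in KO, with 27.6 CPM (22.9 to 33.0) in Sd4 of WT and 14.5 CPM (11.6 to 17.9) in KO, a log2 ratio of -0.92 (-1.34 to -0.52) and of -0.97 over bins. In Sd3 it stood at 64.8 and 53.9 CPM. H2afb3, a testis histone variant, stood at 20.5 CPM in Sd4 of WT and 10.7 CPM in KO, and in Sd3 at 39.6 and 32.9 CPM. Gm13306 had the lowest ratio, -1.05 (-1.31 to -0.81), with 76.7 and 36.9 CPM, and lies in a region of near-identical copies, so its value is uncertain. It was also lower in KO in Sd3, with 119 and 83.7 CPM, and in Sd5, with 10.2 and 7.70 CPM, so its difference was not particular to Sd4. Of 67 cytosolic ribosomal protein genes none was past 1.5-fold between the libraries, and 62 had a log2 ratio of KO to WT below 0, as had 2150 of all 3917 genes, with a median of -0.14 where all genes had -0.02. Their summed level was 25699 CPM in Sd4 of WT and 23209 CPM in KO, and it was also lower in KO in Sd3, with 34673 and 31948 CPM, and in Sd5, with 20203 and 18715 CPM. Tex36 itself had a log2 ratio of KO to WT of -0.14 (-0.20 to -0.08) over all cells and of -0.065 as the mean over bins. Akap4, the main protein of the fibrous sheath, stood at 356 CPM in Sd4 of WT and 469 CPM in KO, and was named after its values were seen. Its log2 ratio of KO to WT was 0.39 over all cells and 0.34 as the mean over bins. Its levels in Sd3 and Sd5 are not given here, so whether the difference was particular to Sd4 is not shown.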

How the data were processed

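The authors prepared 1 library per genotype with a GEXSCOPE microwell kit. Per the study's methods and processing notes, reads were checked with FastQC 0.11.7, trimmed with fastp, aligned with STAR 2.5.3a to mm10 and counted with featureCounts 1.6.2, and cells were clustered with Seurat 3.2.3. Limits of the cell filter are not given in the sources used here. The deposited matrix holds raw UMI counts per gene and cell, and a second deposited table lists library, cluster and percent of mitochondrial UMIs for every cell, as computed by the authors. The matrix has 26758 rows and the deposited list 25065 symbols. Rows were matched by the 30 mitochondrial symbols, whose UMIs had to give the deposited percent in all 12408 cells, and by letting only rows seen in under 5 cells be unnamed. Symbols with 1 possible row were used. No column of sample values was left unused.

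UMIs were summed per cluster and library and given as CPM (Python 3.11.15, numpy 2.4.6, scipy 1.17.1, pandas 2.3.3; plots with matplotlib 3.10.9). Log2 ratios carry a prior of 1 UMI shared over the groups compared, and folds are plain ratios of CPM. A gene was counted as higher or lower past 1.5-fold in both libraries. The depth was 4380722 UMIs in Sd4 of WT and 5985127 in KO, and intervals of 95% cover counting error only. No doublet caller was run. Leaving out the 5% of cells with most UMIs was an alternative instead. Positions are from GENCODE vM21 (GRCm38) and promoters from RefSeq (GRCm38.p6). The counting script was tested on simulated counts.

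Named genes were Tex36 and the study's cluster markers, the 20 highest above and 10 lowest below both neighbours, the 10 highest and lowest against Sd3, against Sd5 and of KO to WT, up to 4 members of each list with most UMIs and up to 4 with the largest change, the 15 genes with most UMIs and the mitochondrial genes; ratios to neighbours were ranked by the smaller change of WT and KO. The text names a selection of these. Genes outside the rule are said to be so, or serve the check of the deletion. The cluster, its marker, the gene lists and the rule were chosen with earlier results of these data known. Alternatives were the filter on low counts, the mean of single-cell CPM, thinning, the prior, a total without mitochondrial and protamine genes, centring, a 2-fold limit and stricter naming. All matrix rows and the mean over bins of protamine share were added after the data were seen.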

Additional observations from a re-analysis of the deposited data

Results flagged for a closer look

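The mitochondrial gene mt-Nd2, a subunit of respiratory complex I, differed in direction between the libraries when Sd4 was set against Sd5. The log2 ratio was -0.56 in WT, with 21.5 CPM from 94 UMIs in Sd4 and 31.8 CPM in Sd5, and 0.47 in KO, with 25.2 CPM from 151 UMIs in Sd4 and 18.2 CPM in Sd5. With 1 library per genotype the difference was not tested.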

How the results depend on the processing

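With 1 library per genotype, leaving out a replicate was not possible. No paired analysis was possible because each genotype has 1 library and the result comes from no test. Of 90 recomputed counts, 50 stayed within 1.5 times of the value in the report. The count above both neighbours was 48 with a 2-fold limit, 56 with stricter naming and 585 over all matrix rows, named or not, and stayed within 1.5 times otherwise. The count below both was 28 at 20 UMIs, 34 at 1 UMI, 7 by mean of single-cell CPM, 8 thinned, 8 with a prior of 10, 30 centred, 1 at 2-fold and 49 over all rows. Genes higher and lower in KO numbered 113 and 120 at 20 UMIs, 305 and 329 at 1 UMI, 66 and 40 by mean of single-cell CPM, 152 and 145 thinned, 1 and 1 at 2-fold, 17 and 12 with stricter naming, and 99 and 88 over all rows. Without the 5% of cells with most UMIs 39 were lower in KO, and as a mean over bins of protamine share 59 were higher. Centring gave 782 lower than Sd3, 1311 higher and 1039 lower than Sd5. The 2-fold limit gave 743 lower than Sd3 and 357 lower than Sd5. Stricter naming, which leaves fewer genes, gave 562 higher and 817 lower than Sd3, and 1066 higher and 325 lower than Sd5. All rows gave 2553, 3437, 5086 and 1176 for the same comparisons. Where construction does not set it, the cause was not tested.

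Of single-gene ratios 16 of 9913 reversed, and of list medians 7 of 932. By mean of single-cell CPM the WT log2 ratio to Sd5 of Slc2a3 was 0.42, and to Sd3 that of Timm8a2 0.052 and of Stra8 0.20, also the median of the spermatogonium list. Thinned, the ratio to Sd5 was 0.80 for Slc2a3, 0.073 for Tex101 and -0.64 for Ndc80 in WT, and 0.24 for Herc1, 0.025 for Rrm1, -0.18 for 4930515G01Rik and 0.40 for Piwil1 in KO. Thinned, the ratio to Sd3 was 0.73 for Timm8a2, 0.32 for Snx4, 0.39 for Stra8 and the spermatogonium list in WT, and -0.34 for Cst9 in KO. The Leydig cell list had 0.054 to Sd5 in KO when thinned. Without the 5% of cells with most UMIs, Slc2a3 had 0.49 to Sd5, and Stra8 and the spermatogonium list 0.56 to Sd3, in WT. At 20 UMIs the immune cell list had 0.98 to Sd5 in KO and the spermatogonium list 0.56 in WT. With stricter naming the ion channel list had -0.30 to Sd5 in WT. Most of these genes had few UMIs in Sd4, which limits their ratios.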

Other observations

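Over all 13 clusters, 409 of 5020 genes (8.15%) had their highest level in Sd4 in both libraries, against 333 in Sd3 and 243 in Sd5. The 15 most abundant transcripts of Sd4 were, beside the protamine and transition protein genes Prm1, Prm2, Tnp1 and Tnp2, those of Cypt4, Smcp, Ldhc, Meig1, Pabpc1, Ubb, Fabp9, Hmgb4, Fam229a, Oaz3 and Ropn1l. Ldhc, the testis lactate dehydrogenase, stood at 6632, 5366 and 5163 CPM in Sd3, Sd4 and Sd5 of WT, and Meig1, which works in transport along the manchette, at 6009, 5226 and 5115 CPM. Cypt4 stood at 2534, 7079 and 10334 CPM. The number of genes detected per cell after thinning to 3000 UMIs had a median of 1639 in Sd4 of WT and 1622 in KO, close to 1684 and 1690 in Sd3 and above 1267 and 1283 in Sd5.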
